A study of Mus musculus with 11 samples.

Results

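S100 proteins are small calcium-binding proteins with EF-hand motifs, and annexins are proteins that bind acidic phospholipid membranes when calcium rises. Several of them work in pairs: S100A10 is the light chain of a complex with annexin A2, S100A11 binds annexin A1, and S100A6 and S100A4 bind several annexins and cytoskeletal proteins. In macrophages they take part in membrane repair, phagosome and endosome traffic, plasminogen activation at the cell surface and the resolution of inflammation, for which annexin A1 is a ligand.

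The members described here are 5 S100 genes (S100a1, S100a4, S100a6, S100a10 and S100a11) and 4 annexin genes (Anxa1, Anxa2, Anxa4 and Anxa5), found by name among the 12932 genes of the table. The set was chosen by measured values of these libraries, since S100a6 is among the largest rises in RXR-deficient mature cells. RXRα and RXRβ are nuclear receptors for retinoid and fatty acid ligands, and the study asked what alveolar macrophages (AMs) of the mouse lung become without them. RNA came from sorted cells of C57BL/6J mice aged 9 weeks, and the study used both sexes. Both alleles of Rxra and Rxrb were floxed in every group. The mAM_WT group (4 libraries) holds mature AMs (CD11b-/SiglecF+) of Rxrab fl/fl littermates without Cre. The mAM_KO group holds the same gate from Cd11c Cre+ Rxrab fl/fl mice, in 4 libraries. The Imm_KO group (3 libraries) holds immature AMs (CD11b+/SiglecF+) of that Cre+ genotype. The Cd11c promoter drives Cre in all cells that express CD11c, dendritic cells included. No control ImmAMs were measured, so cell state and genotype cannot be told apart in Imm_KO against mAM_WT. The study's legends count 3 mAM_KO mice, so replicate 4 was left out of the means and the fit and is given beside them. The plot by library shows all values.

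The libraries held 16659960 to 37873532 reads counted in the genes of the table. Values are CPM, the reads of a gene per fixed number of reads in the library, with library sizes scaled by the TMM method. Differences are log2 fold changes from limma with their standard error (SE), and a gene was called at a Benjamini-Hochberg adjusted p (p-adj) under 0.05 over all 12889 genes tested. Rxra ranged over 310 to 380 CPM (mAM_WT), 334 to 419 CPM (mAM_KO) and 283 to 305 CPM (Imm_KO). Rxrb ranged over 51.4 to 72.1, 39.3 to 55.3 and 31.9 to 35.2 CPM in the same order. These values sum whole transcripts, exons outside the deleted part included, and so do not check the deletion. Of 11 alveolar macrophage markers, 8 were called lower in Imm_KO than in mAM_WT, 1 was called higher and 2 were not called. Siglecf (19.3 to 19.7 CPM against 244 to 264) and Marco (10.9 to 13.9 against 310 to 377) were among the lower. Chil3 was the higher one, at 20272 to 21939 CPM in Imm_KO against 13182 to 18297 (0.40 on the log2 scale, limma p-adj = 0.0273). Pparg and Plet1 were not called.

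S100a6 encodes calcyclin, a calcium sensor that binds annexins and ubiquitin-pathway proteins. In mAM_WT it stood at 1.70, 1.83, 1.52 and 1.74 CPM, from 35 to 64 reads a library. In mAM_KO replicates 1 to 3 it stood at 29.2, 13.9 and 48.1 CPM, and replicate 4 had 64.9. Imm_KO had 219, 223 and 265 CPM. No library of one group reached the range of another, and within mAM_KO the highest library had several times the level of the lowest.

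S100a4 encodes a motility-associated protein that binds non-muscle myosin. Its values in mAM_WT were 2.39, 1.71, 1.45 and 2.38 CPM. The first 3 mAM_KO libraries had 19.1, 10.7 and 28.9 CPM, with 35.3 in replicate 4. Imm_KO had 110, 101 and 105 CPM. The order of the mAM_KO libraries was that of S100a6, with replicate 2 lowest and replicate 4 highest.

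The promoters of these genes are shown because both genes rose in the same libraries and lie close together on chromosome 3 (GRCm38), with S100a5 between them. S100a4 spans 90603771 to 90606045 and S100a6 spans 90612882 to 90624181, both on the + strand, with starts 9111 bases apart. The sequences are the 160 bases upstream of the RefSeq start (GRCm38.p6), 5′ to 3′. Capitals mark matches, on either strand, to the 8 motifs searched.
S100a4 (chr3:90603610-90603769, + strand): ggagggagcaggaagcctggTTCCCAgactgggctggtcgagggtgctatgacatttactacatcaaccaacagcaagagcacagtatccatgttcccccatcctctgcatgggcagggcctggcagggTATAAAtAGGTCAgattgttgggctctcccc
S100a6 (chr3:90612734-90612893, + strand): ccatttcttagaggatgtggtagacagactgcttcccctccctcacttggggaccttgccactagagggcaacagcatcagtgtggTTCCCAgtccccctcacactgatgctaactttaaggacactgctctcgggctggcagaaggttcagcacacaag

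The motifs searched in the 250 bases upstream of each start, on both strands, were the nuclear receptor core AGGTCA, DR1 (the same core repeated in tandem with a single base between, so that each DR1 also holds AGGTCA), AP-1 (TGANTCA), the TATA box (TATAAA), the GC box (GGGCGG), the RBPJ core (TGGGAA), the PU.1 core (GAGGAA) and STAT (TTCNNNGAA). The S100a4 window held AGGTCA at −24 beside TATAAA at −31 and the RBPJ core at −140, counted from the start to the first base of the match. The S100a6 window held only the RBPJ core, at −74. AGGTCA was in 14% of 32851 promoters, TATAAA in 12.4% and TGGGAA in 21.6%. DR1, the arrangement RXR heterodimers can bind, was in 0.0335% of promoters and in 0 of 9 windows of the members, which says only that these letters are not in those windows.

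ImmAMs were compared with control mature AMs over all 9 members. S100a6 was 138-fold higher in Imm_KO than in mAM_WT (7.11 on the log2 scale, SE 0.29, limma p-adj = 1.07e-09). S100a4 was 54.4-fold higher (5.77, SE 0.28, limma p-adj = 3.80e-09). Both fold sizes depend on the pseudocount: with a pseudocount of 1 CPM the log2 values were 6.45 and 5.17. Anxa2 was 4.15-fold lower (−2.05, SE 0.08, limma p-adj = 4.24e-10) and S100a11 was 2.14-fold lower (−1.10, SE 0.12, limma p-adj = 5.12e-06). Anxa5 fell by less (−0.30, SE 0.08, limma p-adj = 0.00527). In all, 5 of 9 members were called, 2 higher and 3 lower. Over all genes, 48.1% were called in this comparison, 22.8% higher and 25.3% lower, so the share of members called was near that of all genes. The median over the members was 0.09 and that of all genes tested 0.00 on the log2 scale. The sizes of the 2 rises and the opposite directions within the set are shown in the plot of log2 fold changes.

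**Figure D1:**
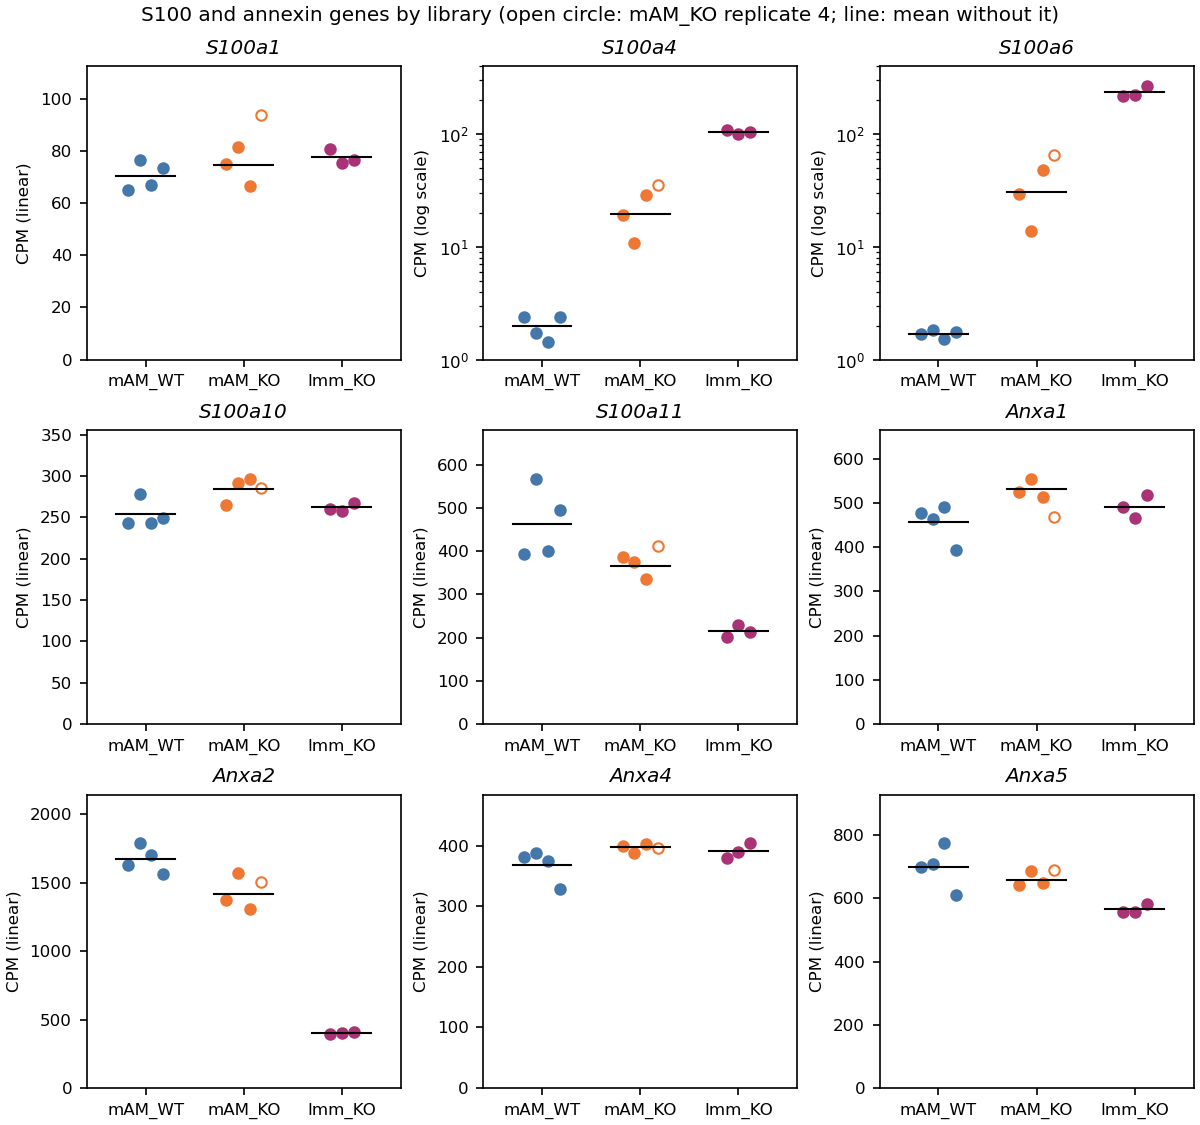
CPM of each member in each library of mAM_WT, mAM_KO and Imm_KO, with a line at the group mean and an open circle for mAM_KO replicate 4, which is not in the mean. S100a4 and S100a6 are on log axes and climb over the 3 groups without overlap, Anxa2 and S100a11 are lowest in Imm_KO, and the other members stay within a narrow range.

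**Figure D2:**
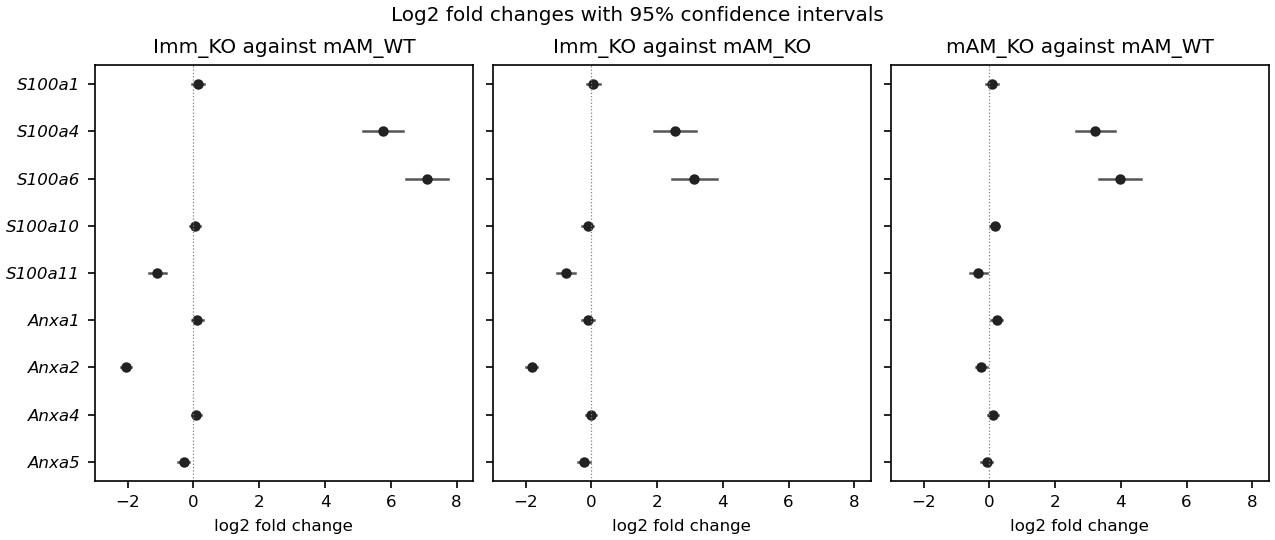
Log2 fold changes of the 9 members from limma in the 3 comparisons (points), with 95% confidence intervals (bars). In Imm_KO against mAM_WT, S100a6 lies at 7.11 and S100a4 at 5.77, while Anxa2 lies at −2.05; the right panel is the comparison the set was chosen on and is a description.

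ImmAMs were then compared with mature AMs of the same genotype, which asks what sets the immature cells apart within that genotype. The study reports efficient deletion of Rxra and Rxrb in both populations, which the values here do not check. This comparison shares its mAM_KO libraries with the one on which the set was chosen, as the one above shares mAM_WT. S100a6 was 8.71-fold higher in Imm_KO than in mAM_KO (3.12 on the log2 scale, SE 0.31, limma p-adj = 5.78e-06). S100a4 was 5.82-fold higher (2.54, SE 0.30, limma p-adj = 1.98e-05). Anxa2 was 3.52-fold lower (−1.81, SE 0.08, limma p-adj = 4.51e-09) and S100a11 1.70-fold lower (−0.77, SE 0.12, limma p-adj = 3.15e-04). Anxa5 lay just under the threshold (−0.22, SE 0.08, limma p-adj = 0.0462) and missed it in 8 of the 10 fits that left out 1 library. It also missed it in 5 of the 14 other alternative fits. In all, 5 of 9 members were called, 2 higher and 3 lower, against 37.9% of all genes (17.7% higher, 20.2% lower).

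Mature AMs without RXRs against control mature AMs is the comparison that chose the set, so its values are a description. The log2 fold change was 3.99 (SE 0.29) for S100a6, place 17 of 12889 genes ordered by that value, and 3.22 (SE 0.28) for S100a4, place 38. The other members lay between −0.33 (S100a11) and 0.22 (Anxa1). The fit called 2 of 9 members, both higher, beside 4.84% of all genes (2.25% higher, 2.59% lower), and nothing is read from that count.

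Reads could be mixed with those of other genes, mostly for 2 members. S100a4 shares 46.4% of its 60-base transcript windows with the overlapping gene Gm42674 on the same strand, and S100a11 shares 39.8% with Gm12854, Gm29240 and Gm7665. None of these genes is in the table. Anxa4 shares 0.3%, in part with genes that are in the table, and S100a1, S100a6, S100a10, Anxa1, Anxa2 and Anxa5 share none. The stretch from S100a1 to S100a9 (chromosome 3, 90511034 to 90695721) holds 13 protein-coding genes, of which 6 are in the table.

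The levels of S100a6 and S100a4 were set side by side per transcript length, taking the longest of each gene's transcripts annotated as principal. The ratio of S100a6 to S100a4 in CPM per kilobase lay at 0.486 to 0.729 in mAM_WT, at 0.884 to 1.25 over all 4 mAM_KO libraries and at 1.36 to 1.71 in Imm_KO. The group ranges did not overlap, and the plot of one gene against the other shows S100a6 below S100a4 in every mAM_WT library and above it in every Imm_KO library.

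**Figure D3:**
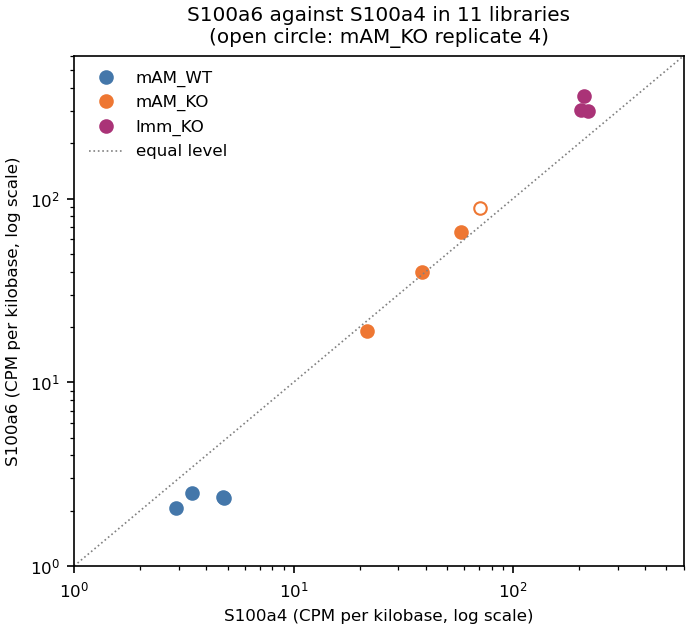
Level of S100a6 against that of S100a4 in CPM per kilobase of transcript, both on log axes, 1 point per library, with the open circle for mAM_KO replicate 4 and a dotted line at equal level. The 4 mAM_WT libraries lie below the line, with ratios of 0.486 to 0.729, and the 3 Imm_KO libraries lie above it, with ratios of 1.36 to 1.71.

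Over all 11 libraries, the gene whose log2 values were most like those of S100a6 was S100a4 (Pearson r = 0.997), among 10396 genes with a group mean of at least 5 CPM. Ptgir (r = 0.990), the prostacyclin receptor gene, came next, then Gask1b (0.989), Spint1 (0.986), a serine protease inhibitor gene, and Zmat3 (0.986). Spint1 had 0.727 to 1.75 CPM in mAM_WT, 9.71 to 32.1 CPM in mAM_KO and 60.3 to 74.6 CPM in Imm_KO. Ptgir had 11.8 to 17.4, 29.8 to 56.1 and 105 to 116 CPM. The points of these correlations share the 3 groups, so r is high for any gene that steps up in the same order. Among the other members, r with S100a6 was lowest for S100a11 (−0.84), Anxa2 (−0.82) and Anxa5 (−0.74).

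The mAM_KO libraries were placed between the mAM_WT mean (0%) and the Imm_KO mean (100%), gene by gene, an alternative added after the data were seen. Since the set was chosen for the level of S100a6 in mAM_KO, these positions restate that choice and are a description. S100a6 lay at 11.8%, 5.22%, 19.8% and 27.0% in replicates 1 to 4, and S100a4 at 16.5%, 8.46%, 26.0% and 32.2%. The median of the 306 genes at least 4-fold higher in Imm_KO lay at 7.06%, 2.57%, 10.3% and 7.78%. C1qa, a complement gene of interstitial macrophages, lay at 0.139% to 1.15%. Itgam, which encodes CD11b, the protein that separates the ImmAM and mature AM gates, lay at 0.183% to 3.79%. Ccr2, a monocyte gene, ranged from −1.41% to 16.5%. Of the falling members, Anxa2 lay at 23.5%, 7.58%, 28.8% and 12.8% and S100a11 at 31.4%, 36.1%, 51.9% and 20.7%. The median of the 281 genes at least 4-fold lower in Imm_KO lay at 22.9%, 14.2%, 34.1% and 22.4%, so Anxa2 was below it in 3 of the 4 libraries and S100a11 above it in 3.

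**Figure D4:**
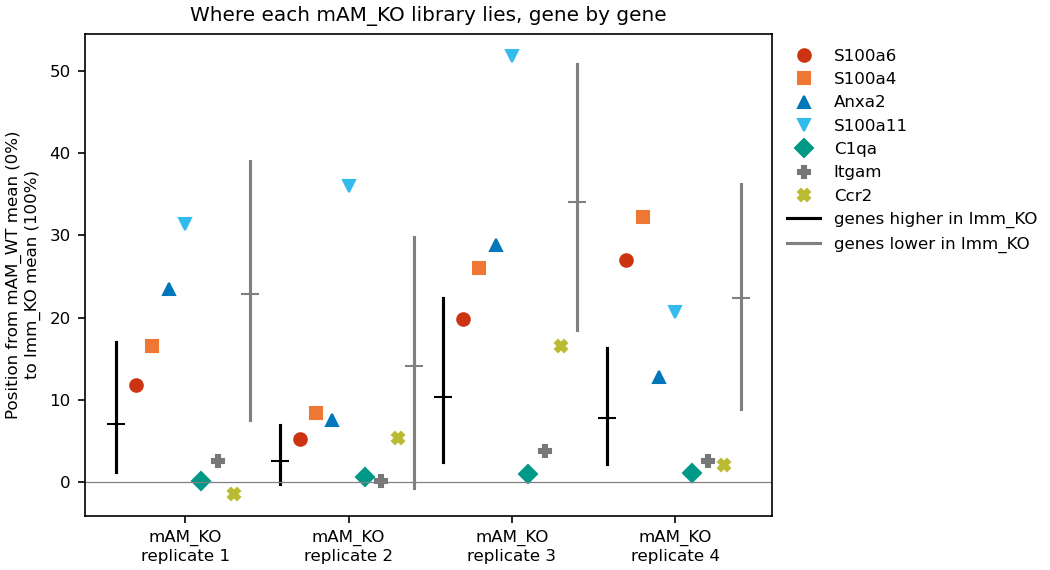
Position of each mAM_KO library between the mAM_WT mean (0%) and the Imm_KO mean (100%) on the linear CPM scale, for S100a6, S100a4, Anxa2, S100a11 and 3 marker genes (symbols). The vertical bars give the middle 50% of the 306 genes higher (black) and 281 genes lower (grey) in Imm_KO by at least 4-fold, with the median as a tick; S100a6 was chosen for its level in these libraries, so its place (5.22% to 27.0%) is a description, and C1qa lies at 0.139% to 1.15%.

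Summed markers of several other cell types were higher in Imm_KO than in both mature groups. In mAM_KO, the interstitial macrophage, monocyte and dendritic cell sums overlapped those of mAM_WT, while the neutrophil and alveolar type 1 sums lay above. The summed CPM of 5 interstitial macrophage markers was 0.806 to 1.97 in mAM_WT, 1.45 to 5.15 in mAM_KO with replicate 4 and 170 to 193 in Imm_KO, and in mAM_KO the C1q genes were at or near 0 (0.0231 to 0.344 CPM for C1qa, C1qb and C1qc). Among the 6 monocyte markers in the table, Itgam (168 to 174 CPM in Imm_KO) encodes CD11b, on which the cells were sorted. It is therefore not independent of the gate. With it, the 6 markers summed to 60.8 to 69.2, 53.2 to 72.2 and 374 to 385 CPM. Within that sum, genes moved both ways in mAM_KO against mAM_WT: Cx3cr1 rose from 0.845 to 4.84 CPM on average (2.25 on the log2 scale, limma p-adj = 0.0164) and Itgam from 3.63 to 7.25 CPM (0.90, limma p-adj = 0.0479), while Treml4 fell from 46.1 to 32.2 CPM (−0.52, limma p-adj = 0.0369). In Imm_KO against mAM_WT, 4 of the 6 monocyte markers were called higher, Treml4 was called lower and Vcan was not called. Treml4 had 3.15 CPM on average in Imm_KO (−3.87 on the log2 scale, limma p-adj = 1.30e-10). The 5 neutrophil markers in the table summed to 49.1 to 59.1, 106 to 336 and 892 to 958 CPM. Mmp8, a collagenase gene that the study names a core AM gene, made up 72.3 to 303 CPM in mAM_KO and 851 to 914 in Imm_KO. Ltf (1.82 on the log2 scale), Cxcr2 (0.67) and Csf3r (0.51) also rose in Imm_KO against mAM_WT, and Retnlg was not called. In mAM_KO against mAM_WT, Mmp8 was the only 1 of the 5 called (2.57 on the log2 scale, limma p-adj = 0.00197). Ly6g, Camp and Ngp are not in the table. Hopx and Pdpn, the 2 of 5 alveolar type 1 markers in the table, summed to 5.06 to 7.34, 8.88 to 21.5 and 75.8 to 78.1 CPM. In mAM_KO against mAM_WT, Pdpn was called higher (1.54 on the log2 scale, limma p-adj = 0.00845). Hopx was not called there (0.44, limma p-adj = 0.424). The 2 of 7 dendritic cell markers in the table, Clec9a and Zbtb46, summed to 5.40 to 7.24, 5.45 to 8.12 and 20.7 to 24.1 CPM, and both rose in Imm_KO against mAM_WT (1.76 and 1.83 on the log2 scale). The part of the cells these lists mark, interstitial macrophages included, in the S100 values was not tested. No T and NK cell, alveolar type 2, endothelial or fibroblast marker of the lists is in the table. In bulk RNA, a change in the number of cells of a type and a change in RNA per cell cannot be told apart.

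S100a10 and S100a1 did not follow. S100a10, the partner of annexin A2, had 243, 279, 243 and 250 CPM in mAM_WT, then 265, 291 and 296 in mAM_KO (286 in replicate 4) and 260, 258 and 268 in Imm_KO. The groups overlapped, and Imm_KO against mAM_WT gave 0.05 on the log2 scale (95% interval −0.10 to 0.20, limma p-adj = 0.573). S100a1, a calcium sensor best known from muscle, had 64.9 to 76.3 CPM in mAM_WT, 66.6 to 81.6 in mAM_KO (93.7 in replicate 4) and 75.4 to 80.8 in Imm_KO. Its difference between Imm_KO and mAM_WT was 0.14 (95% interval −0.04 to 0.33, limma p-adj = 0.189).

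S100a11, which encodes calgizzarin, a partner of annexin A1, ran the other way. It had 394, 567, 400 and 496 CPM in mAM_WT, 386, 374 and 335 in mAM_KO (413 in replicate 4) and 201, 229 and 214 in Imm_KO. The Imm_KO libraries lay below all others, while replicate 4 of mAM_KO lay inside the mAM_WT range.

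Anxa2, which encodes the membrane-binding heavy chain of the S100A10 complex, was highest in mature AMs. It had 1626, 1787, 1706 and 1561 CPM in mAM_WT. The first 3 mAM_KO libraries had 1372, 1574 and 1305 CPM, with 1507 in replicate 4. Imm_KO had 395, 399 and 411 CPM, below every mature library. Per transcript length, Anxa2 stood at 2.96 to 3.33 times the level of S100a10 in mAM_WT, 2.09 to 2.56 times in mAM_KO and 0.718 to 0.732 times in Imm_KO. Anxa2 fell, and S100a10 was not called.

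The promoters of Anxa2 and S100a11 are shown because both genes fell in Imm_KO. The layout, build and capitals are as for the pair above. Anxa2 lies on chromosome 9, 69453620 to 69491795, and S100a11 on chromosome 3, 93520488 to 93526287, in the same stretch as S100a10 (93555080 to 93564643).
Anxa2 (chr9:69453523-69453682, + strand): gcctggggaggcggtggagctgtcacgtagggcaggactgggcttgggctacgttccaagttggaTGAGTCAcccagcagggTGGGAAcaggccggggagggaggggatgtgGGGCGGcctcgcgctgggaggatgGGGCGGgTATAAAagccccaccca
S100a11 (chr3:93520336-93520495, + strand): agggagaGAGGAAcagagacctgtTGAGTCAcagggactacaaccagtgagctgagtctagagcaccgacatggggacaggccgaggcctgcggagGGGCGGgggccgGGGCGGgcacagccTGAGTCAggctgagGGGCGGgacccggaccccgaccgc
Both windows held AP-1 matches, at −95 in Anxa2 and at −136 and −38 in S100a11, and AP-1 was in 6.75% of all promoters. Both also held 3 GC boxes, a motif found in 32.7% of promoters. The GC box at −190 in Anxa2 and an AGGTCA at −243 in S100a11 lie upstream of the bases printed. Anxa2 also held TATAAA at −17 and the RBPJ core at −78, which the S100a11 window did not, and S100a11 held the PU.1 core (in 23.3% of promoters) at −153, which the Anxa2 window did not. STAT was in 0 of 9 windows of the members and in 7.02% of all.

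The other 3 annexins lay close together across the groups. Anxa5, whose protein binds phosphatidylserine exposed on dying cells, had 699, 709, 774 and 611 CPM in mAM_WT, 643, 685 and 647 in mAM_KO (690 in replicate 4) and 556, 557 and 582 in Imm_KO. Imm_KO lay below all mature libraries by a small margin. Anxa1, which encodes the ligand of the formyl peptide receptors, had 394 to 492 CPM in mAM_WT, 515 to 554 in mAM_KO (468 in replicate 4) and 467 to 518 in Imm_KO. Its log2 difference between Imm_KO and mAM_WT was 0.11 (95% interval −0.06 to 0.28, limma p-adj = 0.268). Anxa4, an annexin of epithelial and vesicle membranes, had 328 to 387 CPM, 388 to 404 (396 in replicate 4) and 380 to 404, with a difference of 0.09 (95% interval −0.05 to 0.23, limma p-adj = 0.286).

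Ordered by CPM per kilobase of transcript, Anxa2 (1154 ± 67.7, SD, n = 4) and S100a11 (908 ± 162) led in mAM_WT, with library ranges that overlapped. Anxa5 (403 ± 38.7) and S100a10 (370 ± 25.1) followed, also overlapping, then Anxa1 (273 ± 26.1), Anxa4 (181 ± 13.3), S100a1 (104 ± 7.92), S100a4 (3.98 ± 0.963) and S100a6 (2.32 ± 0.178). In Imm_KO the order was S100a11 (420 ± 27.8), S100a10 (382 ± 7.78), Anxa5 (326 ± 8.36), S100a6 (322 ± 34.7), Anxa1 (294 ± 15.4), Anxa2 (277 ± 6.10), S100a4 (212 ± 8.39), Anxa4 (193 ± 5.96) and S100a1 (114 ± 4.27). From Anxa5 to Anxa2 each neighbour overlapped the next. S100a6, last in mAM_WT, lay among the annexins in Imm_KO.

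**Figure D5:**
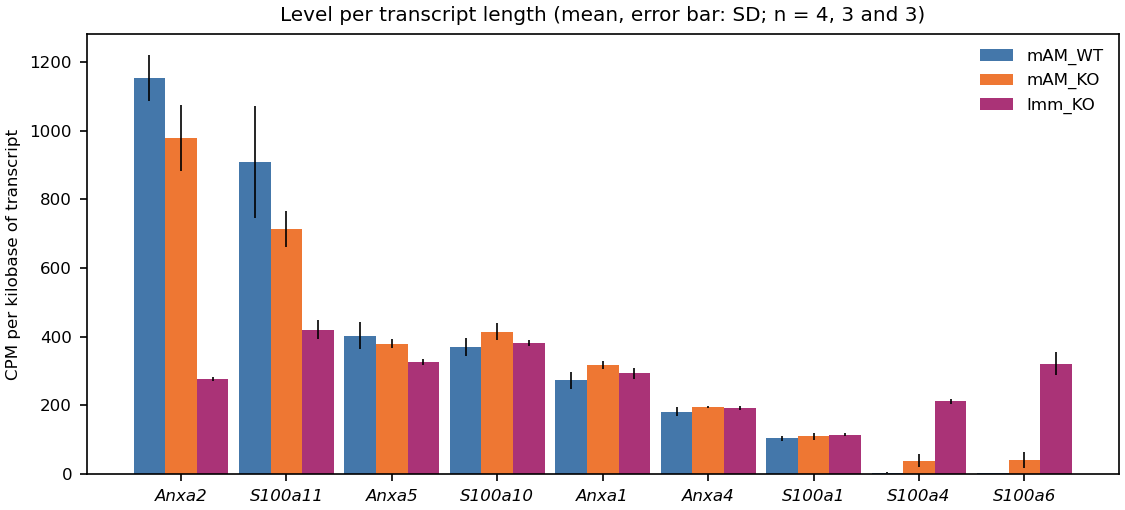
Level of each member in CPM per kilobase of its longest principal transcript, as the mean of each group with SD as error bars (4 mAM_WT, 3 mAM_KO and 3 Imm_KO libraries), ordered by mAM_WT. Anxa2 drops from 1154 to 277 and S100a6 climbs from 2.32 to 322, so the spread between the members is narrower in Imm_KO.

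Other S100 and annexin genes and the genes their proteins work with were read in the same fit, from lists of 76 genes of which 56 are in the table. In Imm_KO against mAM_WT, 12 rose, 25 fell and 19 were not called, beside 22.8% of all genes higher and 25.3% lower. The same shares of all genes stand behind the counts of each list that follows. In mAM_KO against mAM_WT, 2 rose (Plau and Crip1) and 2 fell (Capn1 and Lgals1), beside 2.25% of all genes higher and 2.59% lower, a count that went from 4 to between 0 (without mAM_KO replicate 3) and 7 (without mAM_WT replicate 1) when 1 library was left out.

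S100a8 and S100a9, the calprotectin subunits of neutrophils and monocytes, stayed low. S100a8 had 4.77 ± 1.46 CPM in mAM_WT (SD, n = 4) and 14.4 ± 3.19 in Imm_KO (SD, n = 3), a rise of 1.63 (SE 0.30, limma p-adj = 5.64e-04). S100a9 went from 1.05 to 2.67 CPM (1.36, limma p-adj = 0.0272) and lost its call without Imm_KO replicate 2 or 4, or mAM_WT replicate 2 or 4. All 5 other annexins in the table were called, 4 higher and 1 lower: Anxa3 rose by 0.77, Anxa6 by 0.40, Anxa7 by 0.19 and Anxa9 by 1.45, and Anxa11 fell by 0.52 on the log2 scale. Anxa7 lost its call without Imm_KO replicate 2 or 4. Anxa9, at 4.45 CPM in Imm_KO, is below the level set for naming and was added after its values were seen.

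Of 6 receptor genes, 1 rose and 2 fell. Fpr1 and Fpr2, receptors for formyl peptides and annexin A1, fell from 349 to 57.6 CPM (−2.60 on the log2 scale, SE 0.11, limma p-adj = 1.05e-09) and from 209 to 38.2 CPM (−2.46, SE 0.16, limma p-adj = 4.83e-08). Alcam rose by 1.35 on the log2 scale. Ager, which encodes the receptor RAGE, was at 1.15 to 1.45 CPM on average in the 3 groups, and Tlr4 and Bsg were not called. Anxa1, the ligand gene of Fpr1 and Fpr2, was not called.

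Among intracellular partners, Ahnak, the scaffold bound by the S100A10 and annexin A2 complex, rose from 1134 to 1931 CPM (0.77, limma p-adj = 4.47e-06). Myh9, the non-muscle myosin chain bound by S100A4, fell from 2941 to 1882 CPM (−0.65, limma p-adj = 5.26e-05). Ppp5c fell by 0.47 and Pla2g4a by 0.32 on the log2 scale, and Pla2g4a lost its call without Imm_KO replicate 2 or 3, or mAM_WT replicate 1, 2 or 3. In all, 1 of 8 rose and 4 fell.

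In plasminogen activation, 2 of 6 genes rose, 1 fell and 3 were not called in Imm_KO against mAM_WT. Plau, the urokinase gene, had 18.0 ± 4.05 CPM in mAM_WT, 31.5 ± 6.54 in mAM_KO and 92.7 ± 4.26 in Imm_KO, a rise of 2.39 in Imm_KO (limma p-adj = 1.14e-07) and of 0.82 in mAM_KO (limma p-adj = 0.0197) against mAM_WT. Plaur, the urokinase receptor gene, rose by 0.33 in Imm_KO.

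Membrane repair genes fell or were not called: 7 of 11 fell in Imm_KO against mAM_WT and 0 rose, beside 25.3% of all genes lower and 22.8% higher. Dysf, the dysferlin gene, went from 11.01 to 3.65 CPM (−1.58). Capn1, a calcium-dependent protease gene, had 392 ± 22.9, 294 ± 28.9 and 149 ± 3.91 CPM over the 3 groups, a fall of −1.39 in Imm_KO (limma p-adj = 1.02e-08) and of −0.42 in mAM_KO (limma p-adj = 0.0103). Capn2 fell by 0.55 on the log2 scale. Of 8 other EF-hand calcium sensors, 5 fell, with Chp1 (−1.18), Calm3 (−0.83) and Cib1 (−0.70) lowest, and 0 rose (25.3% of all genes fell and 22.8% rose).

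Of 9 cytoskeleton and galectin genes of monocytes, 2 rose and 5 fell. Crip1, a LIM-domain protein gene, had 49.2 ± 6.41 CPM in mAM_WT, 81.1 ± 20.9 in mAM_KO (135 in replicate 4) and 489 ± 41.2 in Imm_KO, a rise of 3.32 (limma p-adj = 2.18e-09) and, for mAM_KO, of 0.70 (limma p-adj = 0.0234). Emp3 rose by 0.61. Cd44, the hyaluronan receptor gene, fell by 0.74, Tagln2 by 0.71 and Lgals1 by 0.62 on the log2 scale. Lgals1, the galectin-1 gene, was also lower in mAM_KO (151 against 195 CPM, −0.36, limma p-adj = 0.0461).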

How the data were processed

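RNA of sorted AMs was sequenced as single-end reads of 60 bases from directional libraries. The authors trimmed reads with Cutadapt, mapped them to GRCm38 transcripts, quantified them with RSEM (1.3.1 in the submitters' processing notes), applied TMM scaling through limma, and dropped genes that did not reach 1 CPM in 3 samples. The deposited values are CPM per library. They equal whole reads plus 0.5, multiplied by a fixed step, in 100% of values within 0.01, so reads could be recovered for count tests. Per the design text, libraries are individual biological replicates.

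Log2 of the deposited CPM was fitted in limma 3.58.1 (R 4.3.3), with no added pseudocount, over 10 libraries and 3 group means, with a variance trend, in the 12889 genes that reached 1 CPM in 3 of these libraries. The moderated tests were two-sided, with p-adj by Benjamini-Hochberg and a threshold of 0.05. The fit was also run on simulated counts with the same spread setting for all genes, so that run says nothing about the uneven spread of these libraries. The alternatives tried were the inclusion of mAM_KO replicate 4, an added pseudocount (0.5 or 1), a low-value filter that was removed or raised to 5 CPM, quantile and median-ratio scaling, fits of 2 groups alone, a fit with a constant variance, a block for the replicate number, Xist level as covariate, every library left out once, and edgeR 4.0.16, DESeq2 1.42.0 and limma-voom on recovered reads.

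The members and lists were chosen with earlier results of these data known. Named genes are the members, S100a8 and S100a9, the 3 largest rises and falls called per list in Imm_KO against mAM_WT with a mean of 5 CPM or above in 1 of these groups, and the 5 genes most like S100a6. The counts include 1 gene chosen this way that is not reported here. Gene and transcript positions come from the reference annotation, and promoters from RefSeq (GRCm38.p6), with matches for 8 of 9 members (not S100a10). The depth limits low genes most: S100a6 rests on 35 to 64 reads per mAM_WT library.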

Additional observations from a re-analysis of the deposited data

Results flagged for a closer look

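The library of mAM_KO replicate 4 was outside the fit of 10 libraries, and 5 members stood in it above the highest mAM_WT library. S100a6 had 64.9 CPM there against at most 1.83 in mAM_WT, and S100a4 had 35.3 against 2.39. Both were higher than in any of the other 3 mAM_KO libraries. S100a6, S100a4 and Anxa4 also passed the highest mAM_WT library in all 3 other mAM_KO libraries, and S100a10 did in 2 of them, so for these genes the position is not particular to replicate 4. S100a1 had 93.7 CPM against 76.3, the highest of all 11 libraries for that gene. Replicate 2 of mAM_KO also passed the highest mAM_WT library for S100a1, at 81.6 CPM. The margins were small for S100a10 (286 against 279) and Anxa4 (396 against 387). No member had an outlying library within mAM_WT or within the 4 mAM_KO libraries.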

How the results depend on the processing

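The calls of S100a6, S100a4, Anxa2 and S100a11 in both comparisons with Imm_KO, and of Anxa5 against mAM_WT, held in every alternative run. Of 1295 values of members and named genes under alternatives, 1257 kept direction and call, 28 lost a call, 6 gained one and 4 turned sign. The values that turned sign were near 0 as reported, all in Imm_KO against mAM_KO: S100a1 was −0.022 with all 11 libraries and ranged from −0.015 to 0.13 with 1 library left out (negative without mAM_KO replicate 3), and Anxa4 was 0.047 with quantile normalization and 0.013 with the replicate block. A pseudocount of 1 CPM lowered S100a6 from 7.11 to 6.45 and S100a4 from 5.77 to 5.17 in Imm_KO against mAM_WT, with the calls kept. Quantile normalization called 7 members in Imm_KO against mAM_WT in place of 5 (Anxa1 and Anxa4 as well). In mAM_KO against mAM_WT, DESeq2 called 4 members in place of 2 (S100a11 and Anxa2 as well). Anxa5 in Imm_KO against mAM_KO kept its call without a library only when mAM_WT replicate 3 or 4 was left out, and lost it in 5 of the 14 other alternatives.

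The 4 other family and partner genes called in mAM_KO against mAM_WT became 1 with only the groups compared, 0 without a variance trend, 9 in DESeq2, and 0 to 7 with 1 library left out (1 without mAM_KO replicate 1, 0 without mAM_KO replicate 3, 7 without mAM_WT replicate 1 and 2 without mAM_WT replicate 2). Over the whole table, the 624 genes called there became 1369 in DESeq2, 337 with all 11 libraries (205 higher), 199 with only the groups compared, 122 without a variance trend and 162 (without mAM_KO replicate 3) to 861 (without mAM_WT replicate 1) with 1 library left out. The cause was not tested. The labels do not say whether same-numbered libraries come from the same mouse. Deviations of same-numbered libraries from their group means had correlations of −0.13 to 0.25. With 3 or 4 libraries a group, these values cannot settle whether libraries are paired. The block with replicate number called 2 of the family and partner genes in place of 4, and 174 genes in all. It left 5 members called in Imm_KO against mAM_WT, 4 in Imm_KO against mAM_KO and 2 in mAM_KO against mAM_WT.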
